A study of Homo sapiens with 4 samples.

Results

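The genes of fatty acid synthesis, uptake, storage and oxidation were examined in HCC1954 cells, an established human breast cancer line with amplified ERBB2, after knockdown of ZDHHC15. They were 51 protein-coding genes chosen by name, out of 58735 genes in the count table and 19951 that are protein-coding, and were read in 5 steps: synthesis, desaturation and elongation, activation and uptake, storage, and beta-oxidation. RNA-seq libraries were made from 2 control samples (shCON), which received a scrambled short hairpin RNA, and 2 knockdown samples (shZDHHC15), which received a hairpin vector against ZDHHC15, the gene of a palmitoyltransferase that attaches fatty acids to proteins. Both groups carried the same kind of hairpin vector and grew in medium with 10% fetal bovine serum, itself a source of fatty acids. The records differ on the knockdown: the design text calls it stable, whereas the treatment protocol describes a transient transfection with harvest 36 h later. They do not say whether samples 1 and 2 of a group were separate cultures or carried different hairpins, so the p-values measure only the spread between these samples, which may be technical.

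Cells make palmitate from cytosolic acetyl-CoA through acetyl-CoA carboxylase and fatty acid synthase, and then desaturate or lengthen it. Fatty acids taken up from outside are bound, carried into the cell and joined to coenzyme A before they can be used. Acyl-CoA is then either esterified into triglyceride and kept in lipid droplets or moved by the carnitine shuttle into mitochondria, where beta-oxidation shortens it. SREBP-1, encoded by SREBF1, is the main activator of the synthesis genes, and PPAR alpha, encoded by PPARA, of the oxidation genes. Palmitate and its relatives are also the substrates from which enzymes of the ZDHHC family modify proteins.

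The targeted gene, ZDHHC15, had 17617 and 15716 counts in shCON and 0 in both shZDHHC15 libraries. The groups did not overlap, and with 3 counts per library as the limit that a count of 0 allows, the level was at least 5889-fold lower. A hairpin usually leaves some of its target transcript, and the counting tool behind the table is not given in the sources used here, so how far these zeros measure the knockdown was not tested. The 4 libraries held 17560982 to 19118704 counts. The ERBB2, GRB7 and STARD3 genes of the ERBB2 amplicon were each at 42159 to 101910 counts in every library, and the adipocyte genes ADIPOQ and LEP were at 0 in all 4. The summed level of 5 adipocyte markers was 0.602 to 0.71 CPM (counts scaled to a library of 1000000) in shCON and 1.93 to 2.2 CPM in shZDHHC15. That of 9 leukocyte markers was 0.947 to 1.26 and 1.93 to 2.36 CPM, that of 6 fibroblast markers 5.81 to 7.16 and 8.55 to 11.5 CPM, and that of 4 endothelial markers 57 to 57.1 and 101 to 107 CPM. Of the latter, PECAM1 and CDH5 were higher (log2 fold changes 2.91 and 0.65), KDR was lower (-0.64) and VWF was not tested. The 9 epithelial and ERBB2 markers summed to 22700 to 24500 CPM in shCON and 14100 to 14500 CPM in shZDHHC15. Of these markers 7 were lower, where 20.3% of all genes tested were. The largest falls were those of KRT8, KRT18 and KRT7 (log2 fold changes -1.62, -1.58 and -0.99). KRT19 was higher (0.44) and CDH1 did not pass (-0.05). Of 16 interferon-stimulated genes, listed like the markers with earlier results known, 15 were higher in shZDHHC15. That was 93.8%, beside 21.7% of all genes tested, and the median log2 fold change was 4.39. The part of these shifts in the fatty acid genes was not tested. In bulk samples, fewer cells of a type and less RNA per cell cannot be told apart.

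Among the 51 genes, 45 had enough counts to be tested. Of these, 15 were higher in shZDHHC15, 11 were lower and 19 did not pass an adjusted p of 0.05 in edgeR's quasi-likelihood test. The share higher was 33.3%, beside 21.7% of all 15817 genes tested, and the share lower was 24.4%, beside 20.3%. The median log2 fold change was 0.08 over the members and 0.02 over all genes tested. Past a log2 fold change of 1, SCD, ACACA, ACSL1, ACSL5 and CD36 were higher, where 7.51% of all genes tested were, and DGAT2 was lower, where 3.79% were. CD36 entered the test only through the group where it was high, and without it 14 of 44 members were higher. Without shZDHHC15 replicate 1 the counts were 11 higher and 7 lower, and 3 members were past a log2 fold change of 1 in either direction.

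The genes past that limit, and SCD5, which is set beside SCD, lie as follows on hg38, as the count table gives them from the first to the last exon. The synthesis and desaturation genes are ACACA (ENSG00000278540) at chr17:37084988-37406818 on the minus strand, SCD (ENSG00000099194) at chr10:100347124-100364834 on the plus strand and SCD5 (ENSG00000145284) at chr4:82629539-82798857 on the minus strand. The genes of activation and uptake are ACSL1 (ENSG00000151726) at chr4:184755595-184826818 on the minus strand, ACSL5 (ENSG00000197142) at chr10:112374018-112428380 on the plus strand and CD36 (ENSG00000135218) at chr7:80369575-80679277 on the plus strand. The storage gene is DGAT2 (ENSG00000062282) at chr11:75759512-75801535 on the plus strand.

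**Figure D1:**
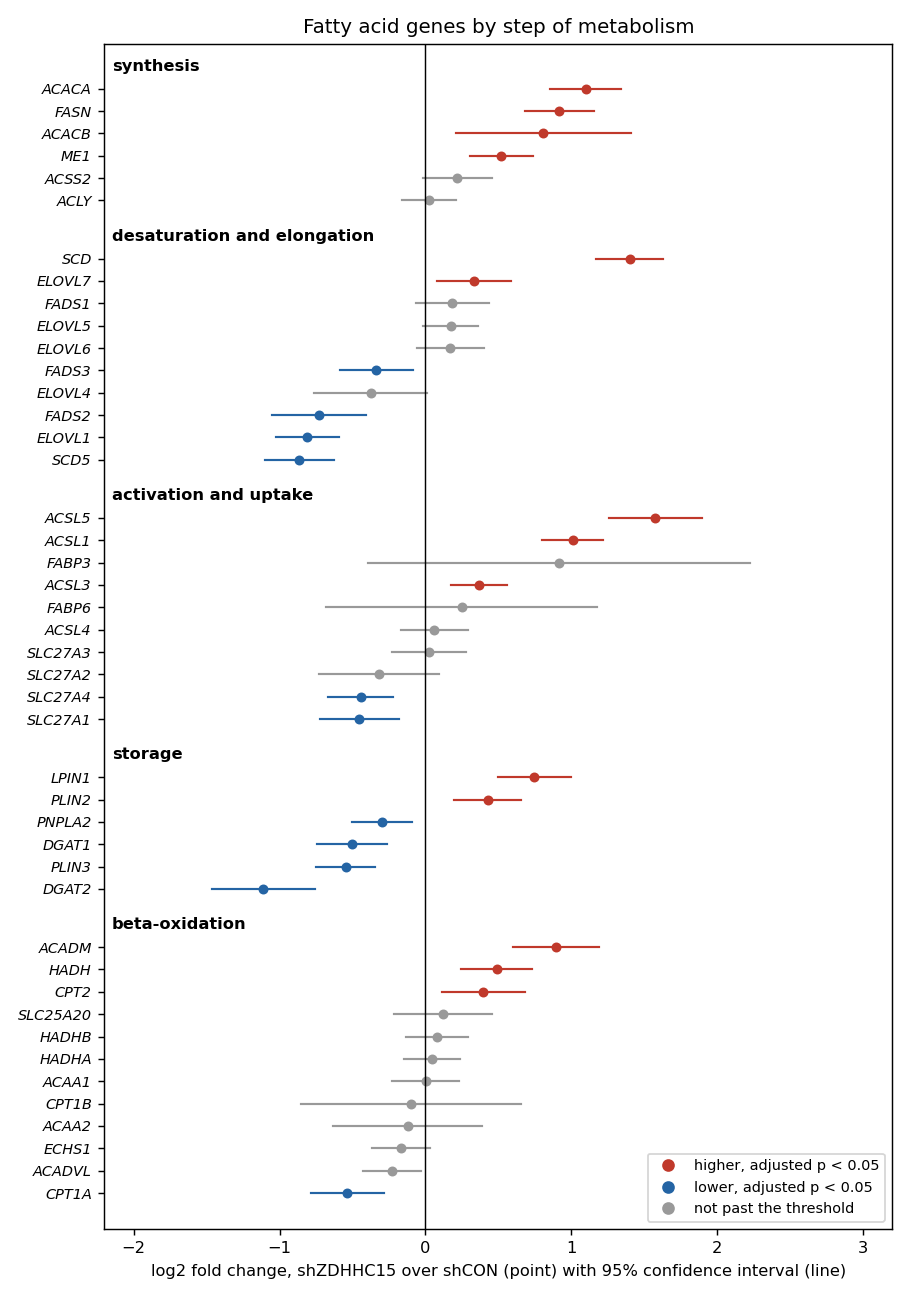
The log2 fold change of shZDHHC15 over shCON is plotted for 44 of the 45 members tested, grouped by step, with points for estimates, lines for 95% confidence intervals and colours for the call; CD36 (4.44) lies beyond the axis. Synthesis genes lie at or right of 0, with ACACA at 1.10 the highest, whereas 4 of the 6 storage genes lie left of it, down to DGAT2 at -1.11.

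The steps did not move as a block. In synthesis 4 of 6 members were higher (66.7%, beside 21.7% of all genes tested) and in storage 4 of 6 were lower (66.7%, beside 20.3%). With 6 genes in each of these steps, the shares are a description of the named genes. The median log2 fold change was 0.66 over synthesis, -0.08 over desaturation and elongation, 0.25 over activation and uptake, -0.40 over storage and 0.02 over beta-oxidation. That of activation and uptake includes CD36, which entered the test only through the group where it was high. Desaturation and elongation held both the strong rise of SCD and the falls of SCD5 and ELOVL1. The promoters of the 4 members with 1 listed start that moved most, SCD and ACADM among those higher and SCD5 and ELOVL1 among those lower, are shown here so that these 2 directions can be read against their start sites. Each is the 250 bases before the RefSeq start, 5′ to 3′ on the gene's strand, on GRCh38.p14, and the choice was made after the values were seen. They lie at chr10:100346983-100347232 on the plus strand (SCD), chr1:75724459-75724708 on the plus strand (ACADM), chr4:82798797-82799046 on the minus strand (SCD5) and chr1:43368012-43368261 on the minus strand (ELOVL1). In the count table's annotation the outermost start of these genes lies upstream of the RefSeq start, within the window for SCD, SCD5 and ELOVL1 and before it for ACADM. Capitals mark CCAAT (the CCAAT box) and GGGCGG (the GC box) on either strand.
SCD: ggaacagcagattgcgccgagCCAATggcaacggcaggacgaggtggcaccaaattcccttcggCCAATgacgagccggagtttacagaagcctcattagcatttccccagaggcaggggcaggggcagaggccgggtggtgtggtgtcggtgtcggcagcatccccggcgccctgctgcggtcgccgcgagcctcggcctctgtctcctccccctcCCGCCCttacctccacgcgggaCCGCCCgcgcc
ACADM: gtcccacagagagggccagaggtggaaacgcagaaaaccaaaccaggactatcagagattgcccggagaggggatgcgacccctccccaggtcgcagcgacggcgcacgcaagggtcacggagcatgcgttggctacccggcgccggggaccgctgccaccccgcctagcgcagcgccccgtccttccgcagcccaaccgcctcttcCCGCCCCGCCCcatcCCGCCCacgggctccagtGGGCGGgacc
SCD5: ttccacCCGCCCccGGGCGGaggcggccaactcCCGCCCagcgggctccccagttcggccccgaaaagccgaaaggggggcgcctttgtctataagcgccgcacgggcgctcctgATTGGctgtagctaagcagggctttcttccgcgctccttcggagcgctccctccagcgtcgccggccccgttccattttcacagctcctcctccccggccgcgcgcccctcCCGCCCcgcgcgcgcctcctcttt
ELOVL1: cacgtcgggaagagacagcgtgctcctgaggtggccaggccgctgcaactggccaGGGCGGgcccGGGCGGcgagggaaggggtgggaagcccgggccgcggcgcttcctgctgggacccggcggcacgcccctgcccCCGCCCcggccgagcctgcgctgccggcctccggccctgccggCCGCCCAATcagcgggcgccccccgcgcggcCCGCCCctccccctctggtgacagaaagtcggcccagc

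The SCD window held 2 CCAAT boxes, whose first bases lie 229 and 186 bases before the start, and 2 GC boxes. The SCD5 window held 1 CCAAT box, read on the opposite strand, and 4 GC boxes, the ELOVL1 window 1 and 5, and the ACADM window 0 and 4. In ELOVL1 the CCAAT box overlaps a GC box. Over all 35116 promoters listed, 32% held CCAAT and 42.6% held GGGCGG in the same length, so neither is rare. The sterol regulatory element TCACNCCAC, to which SREBP binds, was in 0.883% of all promoters. It was in 3 of the 64 promoters of the 44 members listed, those of ACSL1, FABP6 and PNPLA2. The E-box CACGTG was in 6.34% of all promoters and in 3 of those 64, of ELOVL4, ELOVL5 and PLIN2. For the other 7 members, FASN, DGAT1 and DGAT2 among them, no promoter was listed, so they were not searched. Both strands were searched, and a match is a description of the letters in the window.

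Synthesis genes rose at the carboxylase and synthase steps. ACACA, which encodes the cytosolic acetyl-CoA carboxylase that makes malonyl-CoA, had 1121 and 891 counts in shCON and 2474 and 2198 in shZDHHC15. Both knockdown samples were above both controls. Its CPM went from 57.1 ± 6.12 (SD, n = 2) to 122 ± 14.8 (SD, n = 2), a log2 fold change of 1.10 (SE 0.11, edgeR adjusted p = 3.28e-06). FASN, fatty acid synthase, rose from 440 ± 20.5 to 832 ± 151 CPM (SD, n = 2 each), a log2 fold change of 0.92 (adjusted p = 1.29e-05). The wide SD came from the knockdown samples, which both stood above the controls. ME1, malic enzyme, which supplies NADPH, rose by a log2 fold change of 0.52 (adjusted p = 0.000811). ACACB, the carboxylase isozyme at the mitochondrial surface, rose by 0.81 on the log2 scale at 32 to 78 counts per library (adjusted p = 0.0315). Its call was lost with DESeq2 (adjusted p = 0.128), without the filter on low counts (0.0887), without shCON replicate 2 (0.146) and without shZDHHC15 replicate 1 (0.212), within a range of 0.0176 to 0.212 over the 12 alternatives. Per length, ACACA made up 96.7% and 96.9% of the level of both carboxylases in shCON and 97.3% and 97.5% in shZDHHC15.

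The enzymes that supply acetyl-CoA to this step did not pass. ACLY, which splits citrate into acetyl-CoA, had a log2 fold change of 0.03 (95% confidence interval -0.16 to 0.21, adjusted p = 0.844). ACSS2, which makes acetyl-CoA from acetate, had one of 0.22 (-0.01 to 0.45, adjusted p = 0.123), and passed only with scaling by library size alone (adjusted p = 0.0475) among 12 alternatives (up to 0.604). For ACLY too the groups did not overlap, at 302 and 304 CPM in shCON and 307 and 310 CPM in shZDHHC15. Non-overlap of 2 samples against 2 is therefore a description of a gene and no support for a change. Summed over the 6 genes, the level per length was 136 and 132 CPM per kilobase of exon in shCON. It was 203 and 178 in shZDHHC15, so the groups did not overlap. ACLY was the highest of the step in shCON on this scale, at 58.1 ± 0.24 CPM per kilobase, and FASN in shZDHHC15, at 88.8 ± 16.1 (SD, n = 2 each).

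**Figure D2:**
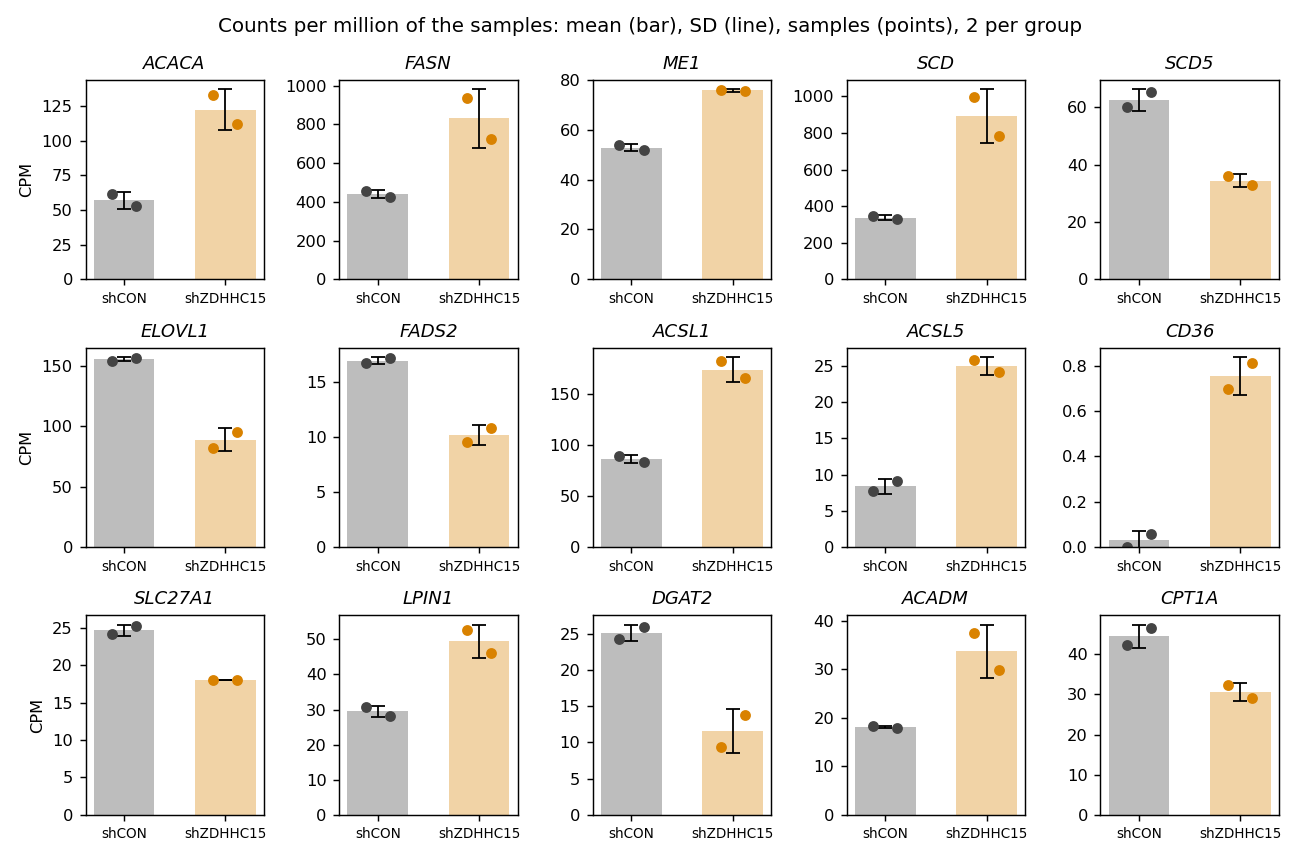
CPM is plotted for 15 members in the 2 shCON and the 2 shZDHHC15 samples, with bars for means, lines for the SD and points for samples, each axis starting at 0. SCD and FASN rise with a wide spread between the knockdown samples, whereas SCD5, ELOVL1, FADS2, SLC27A1, DGAT2 and CPT1A are lower in both knockdown samples than in either control.

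The desaturases moved in opposite directions. SCD, stearoyl-CoA desaturase, which places the first double bond in saturated acyl-CoA, had 6310 and 5559 counts in shCON and 18564 and 15453 in shZDHHC15. SCD5, its isozyme, had 1096 and 1103 counts in shCON and 672 and 644 in shZDHHC15. Neither gene's groups overlapped, with both knockdown samples above the controls for SCD and below them for SCD5. SCD rose by a log2 fold change of 1.40 (SE 0.11, adjusted p = 1.32e-07) and SCD5 fell by 0.87 on the log2 scale (SE 0.11, adjusted p = 2.34e-05). Per length, SCD was 82.2% and 80.1% of the level of both desaturases in shCON and 95.7% and 95.1% in shZDHHC15. Their summed level per length went from 78.4 and 76.6 to 194 and 154 CPM per kilobase, so the fall of SCD5 was small beside the rise of SCD.

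Of the desaturases of polyunsaturated fatty acids, FADS2, the delta-6 desaturase, fell from 16.9 ± 0.33 to 10.2 ± 0.91 CPM (SD, n = 2 each), by 0.73 on the log2 scale (adjusted p = 0.00128). FADS1, the delta-5 desaturase that acts after it, had a log2 fold change of 0.18 (95% confidence interval -0.07 to 0.44, adjusted p = 0.231). Exons of FADS1 share 5.57% of their bases with FADS2 and a microRNA gene together, so reads there could be assigned to more than 1 gene. A stretch of up to 310 bases in FADS1 also has near-identical matches in 23 genes elsewhere, where reads may not have been counted uniquely. FADS3 fell by 0.34 on the log2 scale (adjusted p = 0.0306). That call was lost with library size alone (adjusted p = 0.087), without the filter on low counts (0.0912), without shCON replicate 2 (0.0917) and without shZDHHC15 replicate 1 (0.276), within 0.00242 to 0.276 over the alternatives.

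Among the elongases, which add carbons to acyl chains, ELOVL1, which acts on very long saturated chains, fell from 156 ± 1.79 to 88.9 ± 9.48 CPM (SD, n = 2 each), by 0.81 on the log2 scale (SE 0.10, adjusted p = 1.84e-05). ELOVL7 rose by 0.33 (adjusted p = 0.0351), and its call was lost under 6 of 12 alternatives, where adjusted p ranged up to 0.23. These were the upper-quartile factors, DESeq2, no low-count filter, and the fits without shCON replicate 2 (adjusted p = 0.115), shZDHHC15 replicate 1 (0.0818) or shZDHHC15 replicate 2 (0.23). ELOVL5, which lengthens polyunsaturated chains, had a log2 fold change of 0.17 (-0.02 to 0.36, adjusted p = 0.137), past the threshold with library size alone (adjusted p = 0.0364, over alternatives up to 0.532). ELOVL6, which takes palmitate to stearate, had one of 0.17 (-0.06 to 0.40, adjusted p = 0.222), and ELOVL4 one of -0.38 (-0.77 to 0.01, adjusted p = 0.113). ELOVL2, with 0, 1, 5 and 1 counts over the 4 libraries, and ELOVL3, with 0, 0, 0 and 1, were too low to be tested. Of the per-length level of all 7 elongases, ELOVL1 was 44.8% and 46.5% in shCON and 28.8% and 31% in shZDHHC15, and ELOVL5 was 43.2% and 42.3% and then 56% and 54.7%. ELOVL1 was thus above ELOVL5 in both controls and below it in both knockdown samples.

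**Figure D3:**
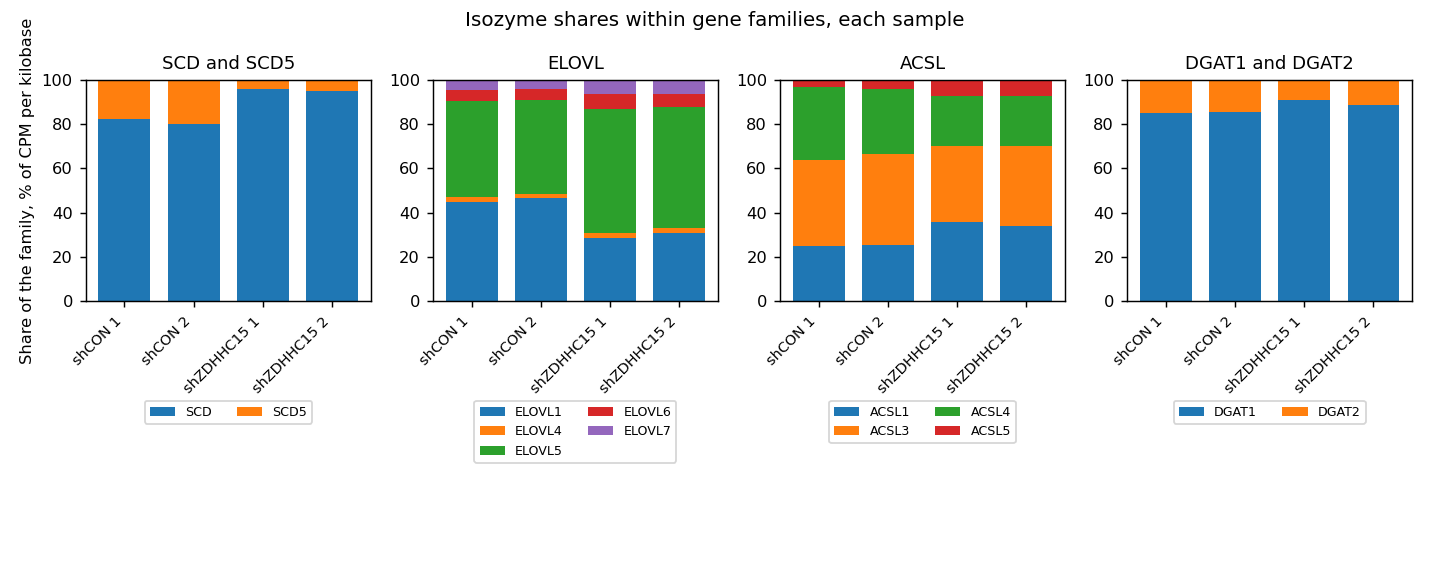
Stacked bars give each isozyme's share, in percent of CPM per kilobase of exon, of its family in each of the 4 samples; ELOVL2 and ELOVL3, under 1% in every sample, are not drawn. SCD takes 95.1% or more of the SCD bars in shZDHHC15, ELOVL5 overtakes ELOVL1, and ACSL5 and ACSL1 widen within the ACSL bars.

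Of the 4 acyl-CoA synthetases among the members, which trap fatty acids in the cell as acyl-CoA, 3 were higher. Of all genes tested, 21.7% were. ACSL5 had 140 and 154 counts in shCON and 482 and 474 in shZDHHC15. ACSL1 had 1629 and 1412 counts in shCON and 3407 and 3252 in shZDHHC15. For each of these genes both knockdown samples were above both controls. The log2 fold change was 1.58 for ACSL5 (SE 0.15, adjusted p = 1.28e-06) and 1.01 for ACSL1 (SE 0.10, adjusted p = 1.53e-06). ACSL3, a synthetase of the endoplasmic reticulum and lipid droplets, rose by 0.36 (adjusted p = 0.00434). ACSL4, which prefers arachidonate, had a log2 fold change of 0.06 (95% confidence interval -0.17 to 0.29, adjusted p = 0.688). The summed level per length of the 4 synthetases was 56.8 and 52.5 CPM per kilobase in shCON and 81.6 and 77.4 in shZDHHC15. ACSL5 went from 3.19% and 4.1% of it to 7.48% and 7.36%, and ACSL1 from 25% and 25.3% to 35.6% and 34%, whereas ACSL4 went from 33.2% and 29.5% to 22.6% and 22.4%. Exons of ACSL5 share 8.64% of their bases with genes on the opposite strand, and the library kit does not mark strand.

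The uptake genes went both ways. CD36, a scavenger receptor that takes up long-chain fatty acids, had 0 and 1 counts in shCON and 13 and 16 in shZDHHC15. Both knockdown samples were above both controls, but every library was at or under 16 counts. The ratio of the summed counts, scaled by library size, was 26.6 (95% exact interval 4.41 to 1087, counting error only). CD36 passed the low-count filter through the shZDHHC15 samples alone, so it had to differ to be tested, and its call is no support for a change. The fitted log2 fold change of 4.44 (edgeR adjusted p = 0.00143) depends on how low counts are shrunk, and went from 3.50 without shCON replicate 1 to 6.84 without shCON replicate 2. SLC27A1, the fatty acid transport protein FATP1, had 440 and 425 counts in shCON and 336 and 353 in shZDHHC15. Both knockdown samples were below both controls, a fall of 0.45 on the log2 scale (SE 0.13, adjusted p = 0.0104). Its call was lost without shZDHHC15 replicate 1 (adjusted p = 0.0545) and without replicate 2 of that group (0.0501), the upper end of a range from 0.0037. SLC27A4, FATP4, fell by 0.44 (adjusted p = 0.0034), and lost its call without shZDHHC15 replicate 1 (adjusted p = 0.0779, the highest of 12 alternatives, from 0.000116). SLC27A4 was 71.7% and 72.7% of the per-length level of the 4 transport proteins in shCON and 66.7% and 69.8% in shZDHHC15.

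SLC27A2, which also activates very long chains, had a log2 fold change of -0.32 (95% confidence interval -0.73 to 0.09, adjusted p = 0.201). SLC27A3 had one of 0.02 (-0.23 to 0.28, adjusted p = 0.892). The fatty acid binding proteins, small cytosolic carriers, were near the limit of detection. FABP3 had 11 and 3 counts in shCON and 9 and 20 in shZDHHC15, so the groups overlapped (log2 fold change 0.92, interval -0.40 to 2.23, adjusted p = 0.252). FABP6 had 13 to 18 counts per library (log2 fold change 0.25, interval -0.68 to 1.18, adjusted p = 0.681). FABP4, FABP5 and FABP7 were at 0 in all 4 libraries, which allows up to 3 counts in each, or 0.153 to 0.178 CPM. The transcript of FABP5 has 5 near-identical copies elsewhere in the genome, and reads from such copies may not have been counted. The 13 FABP5 pseudogenes of the table together held 5, 1, 0 and 2 counts, so its reads were not found there, and a 0 for FABP5 cannot be read as absence of the transcript.

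Storage genes were mostly lower, and those that esterify triglyceride went against the enzyme that precedes them. DGAT2, a diacylglycerol acyltransferase, which adds the last acyl chain of triglyceride, had 444 and 438 counts in shCON and 175 and 271 in shZDHHC15. Both knockdown samples were below both controls, with a wider spread between them. Its CPM fell from 25.1 ± 1.14 to 11.6 ± 3.11 (SD, n = 2 each), by 1.11 on the log2 scale (SE 0.17, adjusted p = 9.05e-05). The fall was 0.87 without shZDHHC15 replicate 1 and 1.43 without replicate 2 of that group, and passed in both. DGAT1, the other isozyme, fell by 0.51 (adjusted p = 0.00223). Per length, DGAT1 was 84.8% and 85.5% of both isozymes in shCON and 90.9% and 88.8% in shZDHHC15, and their summed level went from 20.2 and 22.6 to 13.1 and 15.5 CPM per kilobase.

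LPIN1, a phosphatidate phosphatase that makes the diacylglycerol used by those enzymes, had 559 and 478 counts in shCON and 984 and 908 in shZDHHC15. Both knockdown samples were above both controls, a log2 fold change of 0.75 (SE 0.12, adjusted p = 0.00015). Coat proteins of the lipid droplet differed: PLIN2 rose by 0.43 (adjusted p = 0.00497) and PLIN3 fell by 0.55 (adjusted p = 0.000329). The call of PLIN2 was lost without shZDHHC15 replicate 1 (adjusted p = 0.0587, the highest of 12 alternatives, from 0.00141). PNPLA2, adipose triglyceride lipase, fell by 0.30 (adjusted p = 0.0212). It was the call of this step that the alternatives ended most often, 5 of 12: library size alone (adjusted p = 0.0682), no filter on low counts (0.0575), and the fits without shCON replicate 2 (0.0618), shZDHHC15 replicate 1 (0.176) or shZDHHC15 replicate 2 (0.0695), over a range from 0.00149. Exons overlapping other genes made up 17.8% of PLIN3, 11.1% of DGAT1, 10.4% of PNPLA2 and 6.83% of DGAT2. Summed over the 6 genes, the per-length level was 132 and 145 CPM per kilobase in shCON and 105 and 108 in shZDHHC15, the groups not overlapping.

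In beta-oxidation 3 of 12 members tested were higher and 1 was lower. These were 25% and 8.33%, beside 21.7% and 20.3% of all genes tested, and 66.7% did not pass, beside 58%. ACADM, the medium-chain acyl-CoA dehydrogenase, had 334 and 303 counts in shCON and 701 and 587 in shZDHHC15. CPT1A, the outer-membrane carnitine palmitoyltransferase that admits long-chain acyl groups to mitochondria, had 774 and 785 counts in shCON and 601 and 572 in shZDHHC15. In both genes the groups did not overlap, ACADM being higher and CPT1A lower in the knockdown samples. ACADM rose by a log2 fold change of 0.90 (SE 0.14, adjusted p = 0.000127) and CPT1A fell by 0.53 (SE 0.12, adjusted p = 0.00193). CPT2, the inner-membrane transferase that follows CPT1A, rose by 0.40 (adjusted p = 0.0259). Its call was lost with DESeq2 (adjusted p = 0.0803), without the filter on low counts (0.0805), and without shCON replicate 2 (0.0818), shZDHHC15 replicate 1 (0.178) or shZDHHC15 replicate 2 (0.0516), over a range from 0.0129. HADH, the dehydrogenase for shorter hydroxyacyl chains, rose by 0.49 (adjusted p = 0.00323). The carnitine carrier between these transferases, SLC25A20, had a log2 fold change of 0.12 (95% confidence interval -0.22 to 0.46, adjusted p = 0.578).

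The long-chain machinery of the spiral did not pass. ACADVL, the very long-chain dehydrogenase, had a log2 fold change of -0.23 (-0.43 to -0.03, adjusted p = 0.0618). It was past the threshold with upper-quartile factors (adjusted p = 0.0443), with the replicate block (0.0193) and without shCON replicate 1 (0.006), in a range up to 0.48. HADHA and HADHB, which form the trifunctional protein, had log2 fold changes of 0.04 (-0.15 to 0.24, adjusted p = 0.725) and 0.08 (-0.13 to 0.29, adjusted p = 0.549). ECHS1, a hydratase, had one of -0.17 (-0.37 to 0.03, adjusted p = 0.163). The thiolases ACAA1, of peroxisomes, and ACAA2, of mitochondria, had 0.001 (-0.23 to 0.23, adjusted p = 0.996) and -0.12 (-0.64 to 0.39, adjusted p = 0.715). CPT1B, the muscle form of CPT1, was at 23 to 35 counts per library, with a log2 fold change of -0.10 (-0.85 to 0.66, adjusted p = 0.851), and 66.4% of its exon bases lie in a readthrough gene with CHKB. ACADS, the short-chain dehydrogenase, had 4, 11, 4 and 8 counts and was not tested. Summed over the 13 genes, the per-length level was 228 and 238 CPM per kilobase in shCON and 218 and 220 in shZDHHC15. The groups did not overlap in this sum or in that of any other step, so non-overlap does not set a step apart.

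**Figure D4:**
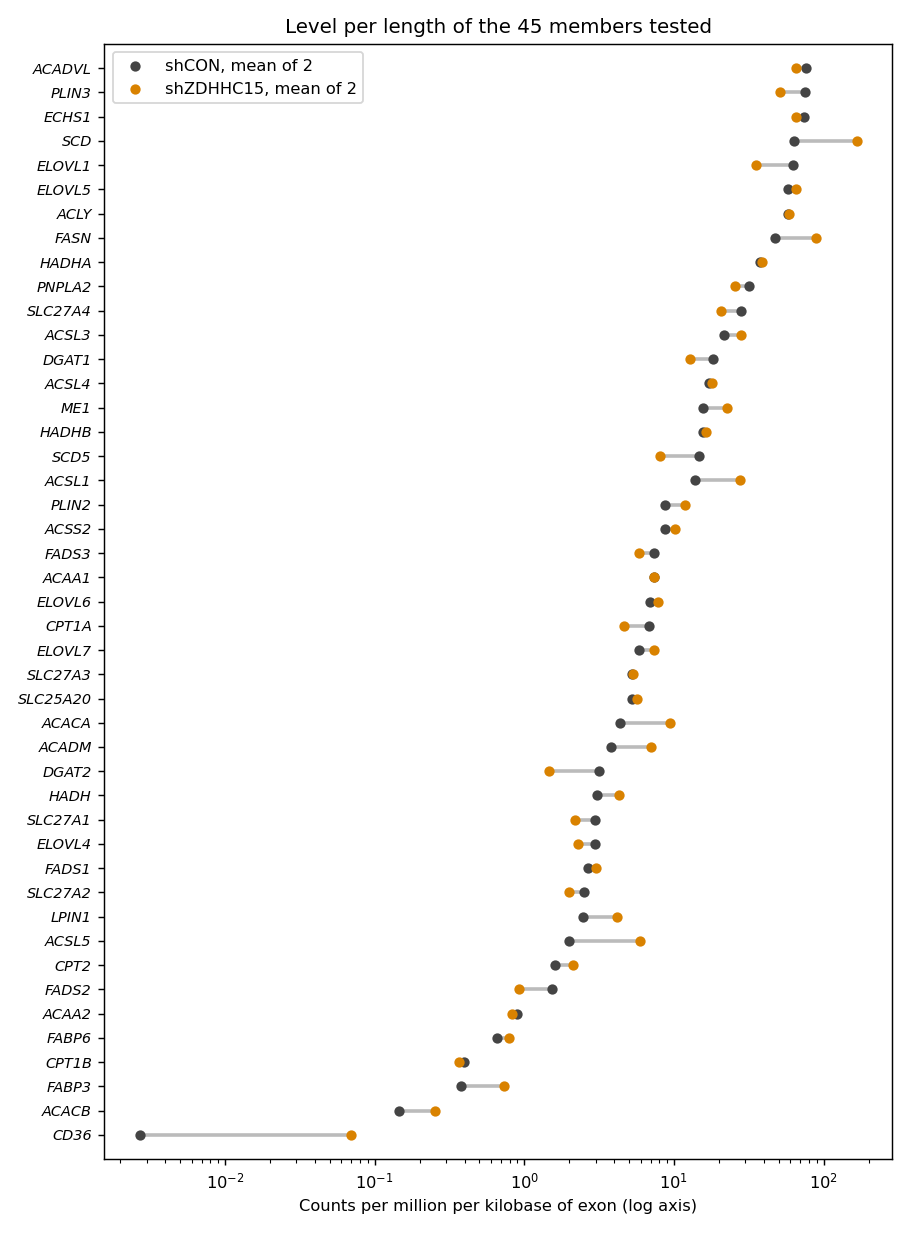
The level of the 45 members tested, in CPM per kilobase of exon on a log axis, is drawn as the mean of the 2 shCON samples (grey) and the mean of the 2 shZDHHC15 samples (orange), in order of the shCON level. ACADVL, PLIN3 and ECHS1 are highest in shCON, SCD and FASN in shZDHHC15, and CD36 lies at the bottom in both.

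The order of the genes by level per length changed at its head. In shCON the highest were ACADVL at 76.7 ± 3.96, PLIN3 at 74.5 ± 5.97 and ECHS1 at 74 ± 1.98 CPM per kilobase (SD, n = 2 each), 3 neighbours whose samples lay within each other's spread. SCD at 62.9 ± 2.18 and ELOVL1 at 62.1 ± 0.72 followed, also within their spread. In shZDHHC15 SCD was the highest at 166 ± 27.6 and FASN the next at 88.8 ± 16.1 CPM per kilobase. ECHS1 at 65.8 ± 1.12, ELOVL5 at 65.6 ± 2.52 and ACADVL at 65.4 ± 5.63 came after them and did not differ beyond their spread. PLIN3 was at 51 ± 0.53 and ELOVL1 at 35.5 ± 3.78 CPM per kilobase. Exon bases shared with other genes made up 21.2% of ACAA1, 19.9% of SLC27A2, 12% of CPT2, 9.36% of FABP6, 8.32% of SLC27A3 and 7.59% of ACAA2. These levels are a description, since length and the ease of mapping differ between genes.

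Outside the 51 genes, a list of 108 other genes of the pathway held 80 that were tested, of which 23 were higher and 12 lower, 28.7% and 15%, beside 21.7% and 20.3% of all genes tested. Without shZDHHC15 replicate 1 these counts were 13 and 7, and without the filter on low counts 15 and 8. Of the 23 that were higher with all libraries, 20 were over the low-count limit in every sample of both groups. LIPE and PLIN4 entered the test only through the shZDHHC15 samples, where they were high, and HSD17B4 did so in part. Among 19 regulators tested, 9 were higher and 2 lower, 47.4% and 10.5% beside 21.7% and 20.3% of all genes tested. Their median log2 fold change was 0.33. SREBF1, which encodes SREBP-1, had 1881 and 1905 counts in shCON and 5238 and 4449 in shZDHHC15. Both knockdown samples were above both controls, with a log2 fold change of 1.23 (SE 0.11, adjusted p = 6.89e-07). SREBF2, which encodes the SREBP of cholesterol synthesis, rose by 0.38 (adjusted p = 0.00392), a call lost without shZDHHC15 replicate 1 (adjusted p = 0.0799, the highest of 12 alternatives, from 0.000933). INSIG1, which holds SREBP in the endoplasmic reticulum and is itself an SREBP target, rose by 0.56 (adjusted p = 0.00108). MBTPS1, the site-1 protease that cleaves SREBP, and NR1H2, a liver X receptor, were the lower ones, at log2 fold changes of -0.38 (adjusted p = 0.00453) and -0.27 (adjusted p = 0.0391). Neither of these passed without shZDHHC15 replicate 2, and 5 regulators were lower without shCON replicate 1. The number higher was 5 without shZDHHC15 replicate 1.

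PPARA rose from 276 and 242 to 533 and 464 counts, a log2 fold change of 0.82 (SE 0.14, adjusted p = 0.000311). PPARGC1B, a coactivator of the PPARs and of SREBP-1, rose by 1.26 (adjusted p = 4.4e-05), from 143 and 100 to 295 and 339 counts. In both genes the knockdown samples stood above the controls. PPARD had a log2 fold change of -0.24 (95% confidence interval -0.46 to -0.03, adjusted p = 0.0683), past the threshold without shCON replicate 1 (adjusted p = 0.00975), with upper-quartile factors (0.0442) and with the replicate block (0.0386), in a range up to 0.245. PPARG, at 12, 6, 9 and 20 counts, had one of 0.56 (-0.62 to 1.74, adjusted p = 0.447). RXRA, the partner of these receptors, was also higher, at a log2 fold change of 0.80 (edgeR adjusted p = 2.86e-05), as was MLXIP at 0.39 (0.00565). Both catalytic subunits of AMP-activated protein kinase were higher too, PRKAA1 at 0.32 (adjusted p = 0.0337) and PRKAA2 at 0.67 (0.0248). PRKAA2 was at 89 to 237 counts per library. These genes were named after their values were seen, and their alternatives were not computed gene by gene.

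**Figure D5:**
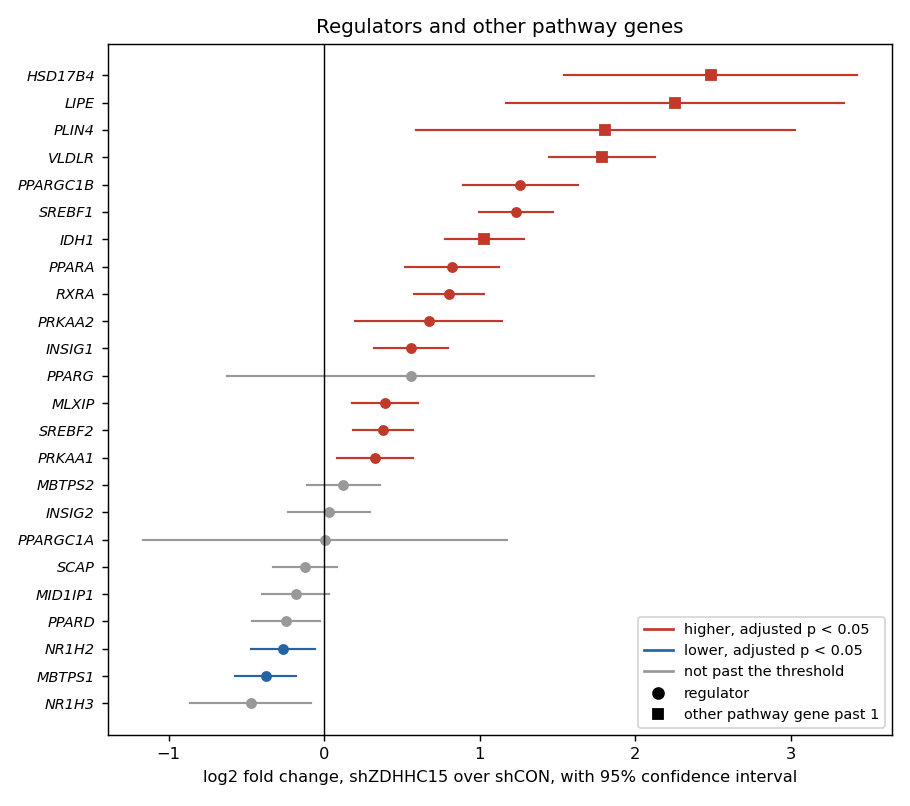
The log2 fold change with its 95% confidence interval is plotted for the 19 regulators tested (circles) and for the 5 other pathway genes past a log2 fold change of 1 (squares), coloured by call. SREBF1 and PPARGC1B lead the regulators at 1.23 and 1.26, and PPARG and PPARGC1A have the widest intervals among the regulators.

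Among the other pathway genes, 5 passed with a log2 fold change above 1, where 7.51% of all genes tested did. With the regulators SREBF1 and PPARGC1B they were 7 of the 80 pathway genes tested. VLDLR, a receptor that takes up triglyceride-rich lipoprotein, went from 465 and 393 counts to 1882 and 1329, a log2 fold change of 1.79 (SE 0.16, adjusted p = 6.56e-07). IDH1, which makes cytosolic NADPH, rose by 1.03 (adjusted p = 9.04e-06), from 1278 and 1160 to 2987 and 2417 counts. For both genes the knockdown samples lay above the controls. The others were low, and LIPE and PLIN4 passed the low-count filter only through the shZDHHC15 samples. HSD17B4 was over its limit in 1 shCON sample and in 2 shZDHHC15 samples, so its entry also rested on the group where it was high. The calls of LIPE, PLIN4 and HSD17B4 are therefore given as values without support. LIPE, hormone-sensitive lipase, went from 6 and 4 to 28 and 25 counts (log2 fold change 2.26, adjusted p = 0.00248), and HSD17B4, of peroxisomal oxidation, from 8 and 12 to 78 and 45 (2.48, adjusted p = 0.000406). PLIN4, a droplet coat protein, went from 5 and 4 to 14 and 21 counts (1.81, adjusted p = 0.0193), a call lost with DESeq2 (adjusted p = 0.125), without the filter on low counts (0.0542), and without shCON replicate 1 (0.0818), shCON replicate 2 (0.108) or shZDHHC15 replicate 2 (0.14). LIPE is also on the adipocyte marker list, whose other members PLIN1 and CIDEC had 2, 4, 13 and 8 and 3, 4, 0 and 5 counts.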

How the data were processed

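RNA-seq of HCC1954 cells was analysed in 4 samples, 2 shCON and 2 shZDHHC15, grouped by their titles. The authors deposited a table of raw counts for 58735 genes with gene lengths; 4 count columns were used and 0 left out. Per the submitters' processing notes, HISAT2, SAMtools and StringTie were used with hg38; their versions, and the counting tool and its strand setting, are not given in the sources used here. The gene identifiers and coordinates are those of GENCODE 29. The library kit does not mark strand, so reads of a gene and an antisense partner cannot be told apart.

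Genes passing edgeR's filterByExpr (15817) were tested with edgeR 4.0.16 (R 4.3.3), TMM factors of 0.962 to 1.03 and the quasi-likelihood test, with Benjamini-Hochberg adjustment over all genes tested and a threshold of 0.05. CPM used TMM-scaled library sizes, and the level per length is CPM per kilobase of merged exon. Intervals of log2 fold changes are 95% and not adjusted. The fit was tested on simulated data. Replicates of a group differed by more than counting noise (chi-square per degree of freedom 8.32 and 6.79). A permutation test of 2 against 2 samples cannot go below 0.333, so none was used. Depth was 17560982 to 19118704 counts; intervals and limits from counts cover counting error only. Alternatives were other scalings, filters, DESeq2 1.42.0, edgeR's legacy dispersion, a replicate block, and each sample left out; those for counts by step and for genes outside the 51 were added after the data were seen. Overlaps of exons were counted in GENCODE 29, and near-identical copies were matches of at least 150 bases at 97% identity or more to another gene. Promoters are RefSeq's.

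The 51 members and all lists were chosen with earlier results of these data known. Every member past the threshold was named. Those past a log2 fold change of 1 and the largest rise and fall of each step, if they averaged 50 counts or more in the higher group, were given with counts. Members not past it were named with their fold change and adjusted p. Of the other pathway genes, those past a log2 fold change of 1 were named, with SREBF1, SREBF2, INSIG1, PPARA, PPARD and PPARG in any case; the further regulators and marker genes named were chosen after their values were seen.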

Additional observations from a re-analysis of the deposited data

How the results depend on the processing

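Over 12 alternatives, 18 of the 26 members called kept their call wherever they were tested, 8 lost it under at least 1, and 0 changed sign. The number of members higher was 11 to 15 with 1 library left out and 12 to 17 under the other settings. The number lower was 7 to 12 with 1 library left out, and 7 without shZDHHC15 replicate 1. The number past a log2 fold change of 1 in either direction was 3 to 7 with 1 library left out, and 3 without shZDHHC15 replicate 1. Where 1 library was left out, the lone library of its group was assumed to vary like the other group. The same-numbered samples' deviations correlated at 0.0344 over 15817 genes, so the numbers were not taken as pairs. With the replicate block, 15 members were higher and 12 lower, and 6 were past a log2 fold change of 1. The median log2 fold change over all genes tested was -0.02 to 0.09 over the scalings, against 0.02, and the share of calls that were higher was 60.6% with library size alone, against 51.6%.

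Signs changed only for genes that had not passed. With upper-quartile factors the log2 fold change was -0.0064 for ACLY and for SLC27A3, and -0.0306 for ACAA1. ACAA1 was also at -0.0122 with DESeq2 size factors, at -0.0126 in DESeq2's test and at -0.0167 without the filter on low counts. With 1 library left out, the log2 fold change ran from -0.0099 to 0.031 for ACLY, from -0.086 to 0.179 for ACSL4, from -0.0395 to 0.0499 for SLC27A3, from -0.398 to 0.134 for CPT1B, from -0.0145 to 0.0649 for HADHA, from -0.102 to 0.0651 for ACAA1, from -0.377 to 0.0934 for ACAA2 and from -0.0891 to 1.05 for PPARG. The cause was not tested. CD36 was not tested without shZDHHC15 replicate 2 or where every sample had to hold 10 counts, since its counts were too few. Genes under the floor of 3 counts were beyond the depth of these libraries.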

Other observations

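Among other genes of peroxisomal oxidation, CROT, which moves shortened acyl chains out of peroxisomes as carnitine esters, rose from 114 and 119 to 243 and 208 counts, a log2 fold change of 0.83 (SE 0.18, edgeR adjusted p = 0.00207). SCP2, a thiolase and carrier, rose by 0.37 (adjusted p = 0.0288). ABCD3, a peroxisomal membrane transporter, fell by 0.30 (adjusted p = 0.035) and AMACR, a racemase, fell by 0.73 (adjusted p = 0.04).

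Of 17 other storage and lipolysis genes tested, 5 were higher and 4 lower, 29.4% and 23.5%, near the 21.7% and 20.3% of all genes tested. Those higher include LIPE and PLIN4, which entered the test only through the group where they were high. Lower were MGLL, which cleaves monoglyceride, by 0.64 on the log2 scale (adjusted p = 0.000302), AGPAT2 and GPAT3, acyltransferases of glycerolipid synthesis, by 0.54 (adjusted p = 0.000895) and 0.59 (adjusted p = 0.00857), and FITM2, of droplet formation, by 0.53 (adjusted p = 0.00511). HILPDA, an inhibitor of PNPLA2, rose by 0.54 (adjusted p = 0.00392), and LPIN2 and LPIN3, relatives of LPIN1, rose by 0.45 (adjusted p = 0.0106) and 0.44 (adjusted p = 0.0489). Apart from LIPE and PLIN4, these genes were named after their values were seen, and their alternatives were not computed.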
